A study of Mus musculus with 10 samples.

Results

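Knockdown of Ino80c was compared with a non-targeting control in J1, a line of mouse embryonic stem cells. Members were the 2 arrays of cells given Ino80c siRNA and the 2 arrays of cells given non-targeting (NT) siRNA, 4 of the 10 arrays in the series. They were chosen by their sample titles alone. The other 6 arrays held knockdowns of Ino80, Ino80b and Ino80e, 2 arrays each, and served to estimate the spread and to test where the Ino80c knockdown differed. All groups were J1 cells maintained in ESGRO medium, moved to M15 medium for transfection, and collected 96 hours (day 4) later as total RNA. The labels call the arrays of a group biological replicates. A whole well of transfected cells is measured at once, so a lower signal can mean less RNA per cell or fewer cells that hold it, and these cannot be told apart. The title of the series frames the question as the place of the INO80 complex in the network that keeps embryonic stem cells self-renewing.

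INO80 is a chromatin remodelling complex that uses ATP to move nucleosomes, and it works at promoters and at sites of replication and repair. Ino80 is its ATPase, while Ino80c, the relative of yeast Ies6, is an accessory subunit that binds the motor together with the actin-related protein Actr5. In naive embryonic stem cells, LIF and BMP signals and a set of transcription factors including Nanog, Klf4, Esrrb and Tfcp2l1 hold the undifferentiated state, and a rare, passing state resembling the 2-cell embryo is marked by Zscan4.

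Each array gave 1 fluorescence value per probe. Levels below are log2 signals relative to the 75th percentile of the same array, so 0 is that percentile and 1 unit is a 2-fold change. Of 41174 probes, 66.4% to 79.0% stood well above background depending on the array, and no spot was saturated. The NT arrays sat alone on slide 1, the Ino80 and Ino80b arrays on slide 2, and the Ino80c and Ino80e arrays on slide 3. For Ino80c against NT, slide and siRNA therefore cannot be told apart, and only the comparison with Ino80e lies within a slide. Across genes, which are not independent replicates, the Ino80c arrays correlated with r = 0.992 and the NT arrays with r = 0.987. All 10 stem cell markers fixed for checking the label, Pou5f1, Sox2 and Nanog among them, were well above background on all 4 arrays. Their signals lay between the 88.3 and 99.97 percentiles of a group.

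Ino80c RNA was the check of the labels. Its level was -1.25 and -1.45 on the Ino80c arrays, against 1.14 and 0.83 on the NT arrays. The groups did not overlap, as was so for 15.9% of all genes in this direction and for 44.5% in the other. The RNA fell to 19.8% of NT (log2 fold change -2.34 ± 0.16, standard error, n = 2 arrays a group, limma adjusted p = 0.0108). A further probe of Ino80c gave -1.62. The call was lost without Ino80c replicate 1 (limma adjusted p = 0.0777) or replicate 2 (0.0719). In the other knockdowns Ino80c RNA averaged 1.17 (Ino80) and 1.42 (Ino80b) and had 1.48 and 1.53 on the Ino80e arrays, all above its level in Ino80c cells.

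Of the 14 measured genes of the INO80 complex, Ino80c was the single member that passed the test (7.14%, against 6.38% of all genes). Ino80b, another accessory subunit, had -2.41 and -2.37 in Ino80c cells, against -1.40 and -1.17 in NT cells, a difference of -1.11 ± 0.35 that was not called (limma adjusted p = 0.0907). Ino80e and Ino80 RNA differed by 0.04 ± 0.28 and 0.18 ± 0.13. For Ino80e the 95% interval ran from -0.60 to 0.69. The probes of Ino80 disagreed in sign. Uchl5, a deubiquitinase of the complex, stood 0.62 ± 0.15 higher without passing (limma adjusted p = 0.0568). None of the 19 genes of the related TIP60 and SRCAP remodellers was called (0%). In lists this short, both shares lie near that of all genes.

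Across the transcriptome, 1319 of 20663 genes were called at an adjusted p under 0.05, or 6.38%. An unadjusted p under 0.05 was reached by 30.6%. Of the calls, 992 were higher in Ino80c cells (4.8% of genes) and 327 lower (1.58%), and 681 differed at least 2-fold (3.3%). The direction of this balance changed with the processing, in which both background handling and scaling differed. The share of calls that were higher was 75.2% as given, 76.8% with another background correction (normexp), 54.1% with quantile normalization, 33.5% with median centring and 27.8% in the authors' deposited table. The median of all genes was 0.26 above NT as given, and 0.09, 0.01 and 0.03 under the last 3 of these. For this reason a list's median is stated as its distance from the all-gene median. The number of calls also rested on single arrays: 11 genes were called without NT replicate 2, 1 without Ino80c replicate 1, and none without Ino80c replicate 2, where 4165 genes still had an unadjusted p under 0.05. Without NT replicate 1 it was 3201, without either Ino80b array 299 and without either Ino80e array 189. No member of any list was called under either of the Ino80c omissions. The plot of calls by setting sets these counts side by side.

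**Figure D1:**
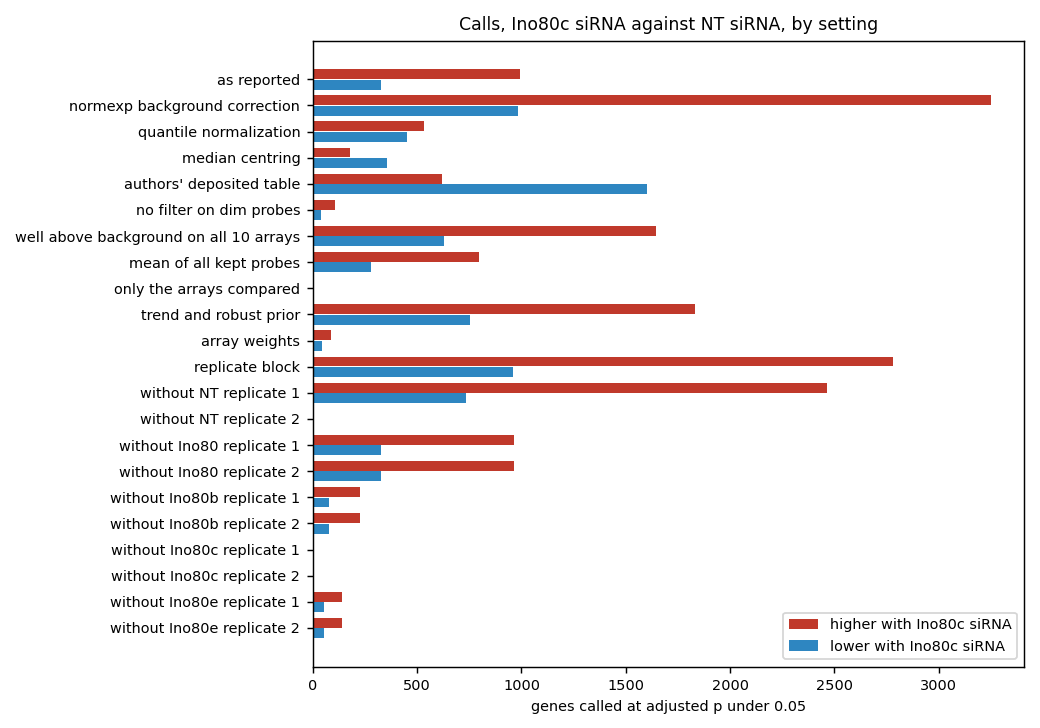
Genes called higher (red) and lower (blue) in Ino80c cells than in NT cells, on the x axis, under each setting on the y axis. As reported there were 992 and 327. Median centring and the authors' deposited table gave more lower than higher calls.

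Of 39 measured members of the core and naive pluripotency list, 12 fell, none was called higher and 27 were not called. The called share was 30.8%, against 6.38% of all genes, and the list median lay 0.78 below that of all genes. This relative median stayed between -0.53 and -0.88 over the alternatives. The list was written with earlier results of these data known, and its counts are a description. Median centring gave 10 calls, quantile normalization 13 and the authors' deposited values 17, while 0 members passed without NT replicate 2, 2 without either Ino80e array and 3 without either Ino80b array.

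Nanog, the homeodomain factor at the centre of the network, had 2.05 and 2.24 in Ino80c cells, against 2.97 and 3.42 in NT cells. It fell 2.07-fold (-1.05 ± 0.20, limma adjusted p = 0.0355). Klf4, a zinc finger factor used in reprogramming, had 4.55 and 4.53 in Ino80c cells, against 5.63 and 5.73 in NT cells, and fell 2.2-fold. Both pairs of arrays were close together and did not overlap. Esrrb, an orphan nuclear receptor of the network, had 3.30 and 3.76 in Ino80c cells, against 4.57 and 5.18 in NT cells, and fell by 1.34 ± 0.28 on the log2 scale. A further Esrrb probe gave -0.66, and the mean of both was not called (limma adjusted p = 0.0569). Tfcp2l1, a LIF-responsive factor, had -0.82 and -0.53 in Ino80c cells, against 0.67 and 0.94 in NT cells, and fell 2.8-fold. Its other probe gave -1.45. Tbx3, a T-box factor of naive cells, had 1.03 and 1.55 in Ino80c cells, against 3.02 and 3.24 in NT cells, and fell 3.59-fold. The largest fall of the list was that of Zfp57, which keeps methylation at imprinted regions: -0.00 and -0.28 in Ino80c cells, against 1.59 and 1.95 in NT cells, or 3.75-fold. Tcl1 fell by 1.35 on the log2 scale. Named outside the rule for single genes, after their values were seen, the other called members were Klf5, Mybl2, Manba, Tet2 and Nacc1, with falls between 0.76 and 1.05 on the log2 scale.

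The factors at the top of the network did not all follow. Pou5f1 had 4.75 and 4.85 in Ino80c cells, against 5.22 and 5.53 in NT cells, a difference of -0.57 ± 0.15 that was not called (limma adjusted p = 0.0647). Sox2 had 3.41 and 3.55 in Ino80c cells, against 3.48 and 3.33 in NT cells, a difference of 0.08 with a 95% interval from -0.35 to 0.50. Klf2 and Dppa5a differed by 0.05 and 0.17. Dppa3 stood 1.08 ± 0.37 higher without passing (limma adjusted p = 0.109).

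**Figure D2:**
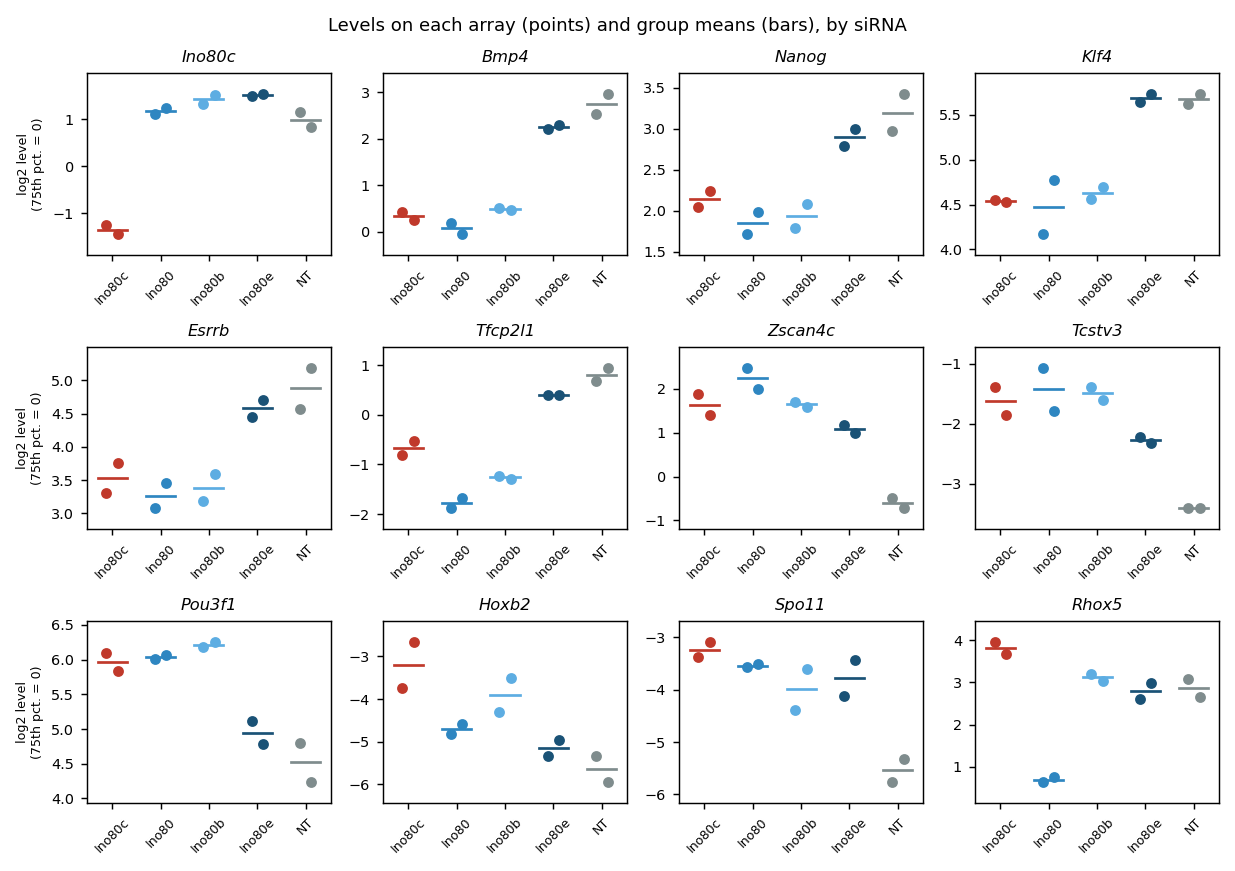
Log2 levels of 12 genes (y axis, 0 is the 75th percentile of an array) by siRNA (x axis), with a point for each array and a bar for the group mean. Nanog, Klf4, Esrrb and Tfcp2l1 lie lower in Ino80c cells than in NT cells, and Zscan4c, Tcstv3, Pou3f1, Hoxb2 and Spo11 higher, with no overlap of the arrays.

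Promoter sequence is shown for 3 of the genes that fell and for Zscan4c, which rose, because they differ in composition and in the motifs they hold. The windows are the 250 bases before the annotated start, from RefSeq on build GRCm38.p6, written 5′ to 3′ on the strand of the gene. Capitals mark letters that match a motif on either strand: the joint OCT4 and SOX2 element, the GC box GGGGCGGGG, or the letters TATAAA of the core promoter. No marked matches overlap.
Nanog promoter, chr6:122707239-122707488, strand +: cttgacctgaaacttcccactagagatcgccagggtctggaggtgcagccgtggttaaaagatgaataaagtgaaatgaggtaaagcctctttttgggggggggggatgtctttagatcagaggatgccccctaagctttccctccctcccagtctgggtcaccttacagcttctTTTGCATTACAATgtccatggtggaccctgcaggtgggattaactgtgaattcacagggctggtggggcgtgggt
Klf4 promoter, chr4:55532476-55532725, strand -: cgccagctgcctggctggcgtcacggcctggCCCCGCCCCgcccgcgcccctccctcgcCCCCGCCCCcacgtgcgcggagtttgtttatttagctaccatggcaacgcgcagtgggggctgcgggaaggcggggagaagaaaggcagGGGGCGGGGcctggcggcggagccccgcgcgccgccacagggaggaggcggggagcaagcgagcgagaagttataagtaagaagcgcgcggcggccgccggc
Tfcp2l1 promoter, chr1:118627695-118627944, strand +: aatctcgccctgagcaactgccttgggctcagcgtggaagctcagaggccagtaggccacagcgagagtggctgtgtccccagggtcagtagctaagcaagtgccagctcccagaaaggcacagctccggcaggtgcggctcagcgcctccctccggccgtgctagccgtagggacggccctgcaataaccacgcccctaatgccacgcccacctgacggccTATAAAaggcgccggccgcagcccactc
Zscan4c promoter, chr7:11005495-11005744, strand +: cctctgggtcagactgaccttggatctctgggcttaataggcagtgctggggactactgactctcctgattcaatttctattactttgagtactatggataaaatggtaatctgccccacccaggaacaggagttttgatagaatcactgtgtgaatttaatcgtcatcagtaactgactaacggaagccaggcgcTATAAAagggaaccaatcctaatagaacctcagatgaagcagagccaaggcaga
The Nanog window holds the joint OCT4 and SOX2 letters 75 bases before the start, on the opposite strand. The letters occurred in 8 of 32851 windows of 300 bases (0.0244%), among them a second, overlapping window of Nanog. Klf4 holds 3 GC boxes and 32 CpG in a window of 74.0% G and C, whereas that of Zscan4c holds 3 CpG at 44.8% and a TATA box. The window of Tfcp2l1, which fell, also holds a TATA box, with 16 CpG at 65.2%. Windows of Esrrb and Bmp4, which fell and are not printed, hold none of these motifs. A match is a description of letters and not a binding site.

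Promoter windows of 300 bases could be matched to 12095 of the genes tested. Promoters of the genes called higher had a median of 12 CpG, those of the genes called lower 20.5 and those of all genes 18. TATAAA was present in 16.3% of the higher group, 8.3% of the lower group and 11.1% of all. GGGGCGGGG was in 18.4%, 31.1% and 22.3%. AANATGGC, the core letters bound by Yy1, a zinc finger protein that associates with INO80, was in 7.16%, 4.98% and 8.66%. The genes called higher were also dimmer, and dim genes had fewer CpG in any case. Within the dimmer genes the CpG medians were 8 (higher), 19 (lower) and 12.5 (all), and within the brighter genes 22, 21.2 and 22. In the same order, GGGGCGGGG was in 13.4%, 33.04% and 18.5% of dimmer genes, but in 31.2%, 29.4% and 26.2% of brighter genes. Its lower share in the higher group was thus seen in the dimmer genes only. AANATGGC was in 5.72%, 2.61% and 5.67% of dimmer genes, and in 10.8%, 7.14% and 11.7% of brighter genes. TATAAA was most frequent in the higher group and least in the lower group at both levels.

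In the BMP list 1 of 36 genes was lower and 1 higher, 5.56% against 6.38% of all genes. Bmp4, the ligand that sustains Id genes, had 0.44 and 0.27 in Ino80c cells, against 2.54 and 2.96 in NT cells. It fell 5.26-fold (-2.40 ± 0.17, limma adjusted p = 0.0134). The 10 spots of its probe on an array spanned 0.33 to 0.55 and 0.12 to 0.34 on the Ino80c arrays, against 2.43 to 2.62 and 2.84 to 3.04 on the NT arrays. No spot of an Ino80c array reached an NT spot. Bmp8b, another ligand, rose by 1.35 ± 0.12. Id1 and Id3, targets of BMP signalling, differed by -0.40 ± 0.42 and -0.49 ± 0.22 and were not called. In the LIF and Stat3 list 3 of 23 (13%) fell: Pim3 (a kinase), Tyk2 (a Janus kinase) and Socs2 (a feedback inhibitor), by 0.97, 0.86 and 0.74 on the log2 scale. Stat3, Lifr and Socs3 differed by -0.06, -0.05 and 0.05. None of 25 FGF genes (0%) and 1 of 21 Nodal genes (4.76%), Gdf1, was called.

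Of 13 measured genes of the 2-cell-like state 8 rose, Tbx3, also a member of this list, fell, and 4 were not called. The called share was 69.2%, against 4.8% of all genes called higher and 1.58% called lower. The list median lay 1.13 above that of all genes, and between 0.42 and 1.38 over the alternatives. Called higher were 9 with normexp, 7 with quantile normalization, 5 with median centring, 6 in the authors' deposited table, 4 without either Ino80b array, 2 without either Ino80e array and 0 without NT replicate 2. Zscan4c, which marks the state and acts at telomeres, had 1.88 and 1.40 in Ino80c cells, against -0.48 and -0.72 in NT cells. It rose 4.72-fold (2.24 ± 0.22, limma adjusted p = 0.0173), and its other probe gave 1.69. Usp17la, a deubiquitinase, had 0.33 and -0.32 in Ino80c cells, against -1.96 and -2.39 in NT cells. Tcstv3 had -1.38 and -1.86 in Ino80c cells, against -3.40 and -3.39 in NT cells, and Tcstv1 rose by 1.68. The groups did not overlap for any of these. Their probes can bind near-identical copies, so the signal may belong to any member of each family. Pramel37 and Pramel39, of the Prame-like family, rose by 2.25 ± 0.20 and by 2.15 ± 0.23.

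In the germline and meiosis list 7 of 35 were higher and 1 lower, 22.9% called against 6.38% of all genes. Spo11, the enzyme that makes meiotic double-strand breaks, had -3.38 and -3.09 in Ino80c cells, against -5.76 and -5.32 in NT cells, and rose 4.96-fold. Sycp2 of the synaptonemal complex, Taf7l, Tdrkh and Tdrd1 rose by 1.19 to 1.37 on the log2 scale. A further Tdrd1 probe gave 0.35, and the mean of the Tdrkh probes was not called (limma adjusted p = 0.0825). Kit, the receptor of stem cell factor, had -1.92 and -1.43 in Ino80c cells, against -0.31 and 0.49 in NT cells, and fell 3.4-fold. Of the X-linked Rhox homeobox genes 4 of 6 rose (66.7%): Rhox6 by 1.21, Rhox13 (named 1700123J19Rik on the array) by 1.10, Rhox5 by 0.95 and Rhox9 by 0.91. The Rhox count was 1 with median centring, 1 without any single Ino80b or Ino80e array and 0 without NT replicate 2. In the Hox list 1 of 24 passed (4.17%), Hoxb2, with -3.74 and -2.66 in Ino80c cells, against -5.33 and -5.94 in NT cells.

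Markers of the primed epiblast, the state that follows naive pluripotency, were higher in 5 of 25 cases and lower in none. That is 20%, against 4.8% of all genes called higher. The list median lay 0.01 below that of all genes, and 2 members passed with median centring, 1 without either Ino80e array and 0 without NT replicate 2. Pou3f1, a POU factor of early epiblast and neural cells, had 6.10 and 5.83 in Ino80c cells, against 4.80 and 4.24 in NT cells, and rose 2.73-fold. Wnt8a, a streak-stage ligand, had -1.06 and -0.43 in Ino80c cells, against -2.29 and -2.60 in NT cells, and rose 3.24-fold. The de novo DNA methyltransferases Dnmt3a and Dnmt3b rose by 0.95 ± 0.22 and 0.70 ± 0.11, although the mean of the Dnmt3a probes was not called (limma adjusted p = 0.0812). Tet2, which oxidises methylcytosine, fell by 0.89 ± 0.17. Fgf5, the usual marker of primed cells, was 0.84 ± 0.25 higher without passing (limma adjusted p = 0.0829).

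Lineage lists were mixed. In the trophectoderm list 5 of 34 rose and 5 fell, 29.4% called against 6.38% of all genes. The connexin Gjb5 fell by 1.39 ± 0.14, Lgals3 by 1.56 ± 0.18, and Rhox6, Bmp8b, Sct, Cdx2 and Csh1 rose. The rise of Cdx2 was 0.56, and as small as 0.23 over the settings. It was not called with quantile normalization, with median centring or in the authors' deposited table. In the endoderm list (16.7% called) 2 of 30 rose, among them Hnf4a by 1.17, and 3 fell. Hnf4a was likewise not called with quantile normalization, with median centring or in the deposited table. Those that fell were the basement membrane genes Col4a1, Col4a2 and Lama1, by 0.88 to 1.11. A further Lama1 probe gave -0.12, and the mean of its probes was not called (limma adjusted p = 0.0776). The endoderm factors Gata6 and Sox17 differed by -0.61 and -0.69 and were not called. In the streak and mesoderm list (16.1% called) 3 of 31 rose and 2 fell, Evx1 by 1.65 ± 0.33 and Bmp4. In the neural list 1 of 28 rose (3.57%), Fabp7, by 1.95. Among the imprinted genes (17.1% called) 6 of 41 rose, Dlk1 by 1.12 and the cell cycle inhibitor Cdkn1c by 0.86 among them, and Cobl fell.

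Dcn, a matrix proteoglycan of fibroblasts, rose by 2.08 ± 0.32. In the feeder fibroblast list 4 of 31 genes were higher and none lower, 12.9% against 4.8% of all genes called higher. Of the 10 fibroblast markers fixed for checking the label, 9 were well above background on both Ino80c arrays and 8 on both NT arrays. Their summed level was 2.52 and 2.79 in Ino80c cells, against 2.92 and 3.38 in NT cells. That sum was carried by Fn1, at 1.91 and 2.31 in Ino80c cells, against 2.59 and 3.12 in NT cells. Of the 9 markers tested, the other 8 had a log2 fold change above 0, from 0.01 (Thy1) to 2.08 (Dcn), and Dcn and Twist2 were called. Lum was not well above background on either Ino80c array, and Postn on neither NT array. The part of feeder RNA in these results was not tested.

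Among chromatin regulators, Polycomb genes were lower in 3 of 33 and higher in 2, 15.2% called against 6.38% of all genes. Pcgf2, a ring finger subunit of Polycomb repressive complex 1, had -1.26 and -1.39 in Ino80c cells, against 0.08 and 0.75 in NT cells, and fell 3.34-fold. Of other remodellers (9.76% called) 3 of 41 fell, the BAF subunits Smarcd1 and Smarcd3 by 1.16 and 1.12 and Gatad2b, whose probes disagreed. Smarca1, an ISWI ATPase, rose by 1.01 ± 0.19 but was not called with median centring.

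General processes moved little. None of 81 ribosomal protein genes, 66 respiratory chain genes and 36 glycolysis genes was called by limma, although normexp called 1 higher in each and 1, 3 and 5 lower, and the authors' deposited table called 3, 6 and 6 lower. Of 48 replication genes 1 fell, Pola2, whose further probe gave 0.18 against -0.77, and of 49 damage response genes Fancl rose and Ercc2 fell. The p53 targets Fas, Pmaip1 and Trp53inp1 rose by 1.01, 0.86 and 0.66 on the log2 scale, 3 of 36. In the cell cycle list Ccnd3 fell 2.3-fold. Interferon genes Ddx58 and Oas1a fell, 2 of 38, and stress genes Ppp1r15a and Xbp1 fell, 2 of 41. Of 34 cholesterol synthesis genes Acat2 and Mvk fell and Scap rose. The called shares were 2.08% (replication), 4.08% (damage response), 8.33% (p53) and 7.69% (cell cycle), against 6.38% of all genes. They were 5.26% (interferon), 4.88% (stress) and 8.82% (cholesterol synthesis).

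**Figure D3:**
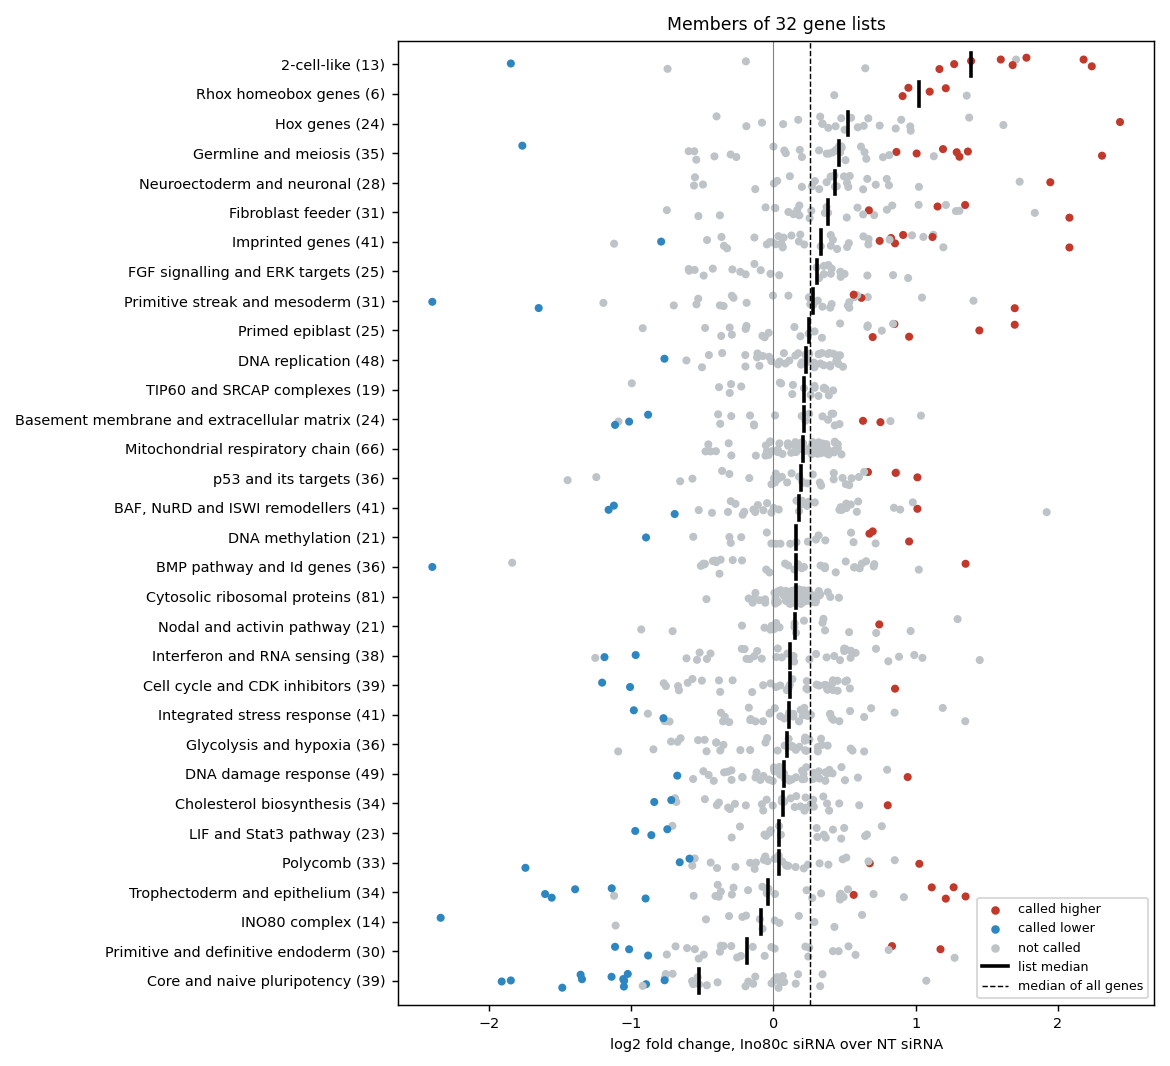
Log2 fold change of Ino80c over NT siRNA (x axis) for each measured member of 32 gene lists (y axis, number measured in brackets). Points are called higher (red), called lower (blue) or not called (grey), bars are list medians, and the dashed line is the median of all genes, 0.26. Core and naive pluripotency lies lowest and 2-cell-like highest.

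Among genes with symbols whose arrays did not overlap and were measured on all 4 arrays, the 3 largest falls were outside these lists. Slc11a1, a divalent metal transporter of macrophages, had -4.18 and -3.57 in Ino80c cells, against -0.87 and -0.36 in NT cells, and fell 9.59-fold (limma adjusted p = 0.0163). Septin1, a cytoskeletal GTPase, had -2.49 and -2.80 in Ino80c cells, against -0.31 and 0.58 in NT cells, and fell 6.89-fold. Slc4a7, a bicarbonate transporter, fell by 3.08 ± 0.68, with NT arrays at 3.70 and 5.81. Bmp4 and Ino80c followed, and Parvb, Pgc, Git1, Slc66a2 and Foxp4 fell by 1.92 to 2.13. The largest rises were Hoxb2, Spo11, Pramel37, Zscan4c and Usp17la, followed by Zfp697 (2.18, with 0.39 at a further probe), Pramel39, Dcn and Bpifb2 (2.05). Kynu, an enzyme of tryptophan breakdown, rose by 1.97 ± 0.22. For genes not well above background on either array of a group only a bound is given. Their calls set a measured signal against background and are not used as support. Olfr533, Dhrs9 and Gpr149 were well above background on 2 of the 10 arrays, and Ly86 and Islr2 on 3. Each of these therefore passed the filter through 1 group alone. Ly86 was at least 4.31-fold higher in Ino80c cells, Acot5 at least 2.77-fold, Olfr435 at least 2.75-fold, Olfr533 at least 2.72-fold and Dhrs9 at least 1.9-fold. Gpr149 was at least 1.96-fold lower in Ino80c cells and Islr2 at least 1.73-fold lower. Neither of these 2 was called with normexp or in the authors' deposited table. Over the settings their log2 fold changes were as small as -0.29 and -0.17. Olfr435 was not called in the deposited table, and Ly86 and Acot5 were not called with quantile normalization.

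Genes called higher were dimmer than the rest. Their median level was -2.33 in Ino80c cells and -3.34 in NT cells, that of the genes called lower -0.67 in Ino80c cells and 0.46 in NT cells, and that of all genes -1.23 in Ino80c cells and -1.38 in NT cells. Of 5 equal groups of genes by level, ordered from dimmest to brightest, the shares called higher were 4.52%, 7.79%, 6.19%, 3.41% and 2.08%, so that the highest share lay in the group next to the dimmest. The shares called lower were 0.218%, 1.11%, 2.98%, 2.76% and 0.847%. The median change was 0.53 in the dimmest group and 0.10 in the next to brightest. With quantile normalization these groups differed less, at 0.09 and 0.07. Olfactory receptor genes, a family chosen after values were seen, held 44 higher calls of 328 and no lower ones, 13.4% higher against 4.8% of all genes, at a median NT level of -5.48.

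**Figure D4:**
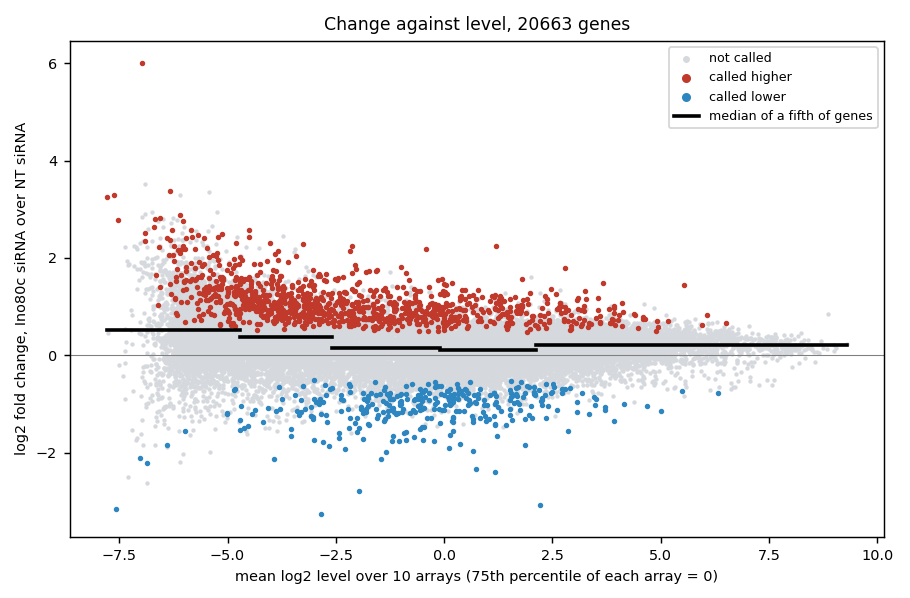
Log2 fold change of Ino80c over NT siRNA (y axis) against mean log2 level over 10 arrays (x axis), a point for each gene. Black bars are medians of 5 equal groups of genes by level, from 0.53 in the dimmest to 0.22 in the brightest.

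Within slide 3, 7 genes (0.0339%) differed between the Ino80c and Ino80e knockdowns, 3 higher (0.0145%) and 4 lower (0.0194%) in Ino80c cells. Ino80c itself was -2.85 ± 0.16 relative to Ino80e cells (limma adjusted p = 0.00527). Bmp4, at 0.44 and 0.27 in Ino80c cells, had 2.20 and 2.29 in Ino80e cells, a difference of -1.90 ± 0.17 (limma adjusted p = 0.0339). Ankrd33b, an ankyrin repeat gene, was lower by 1.79 and Igdcc4, an immunoglobulin superfamily gene, higher by 1.37. The other calls were Dhrs9, Olfr533 and a transcript named only by a clone accession. Dhrs9 and Olfr533 passed the filter on dim probes only through the Ino80c arrays, so their calls are not used as support. No member of the pluripotency list passed here. Tfcp2l1 differed by -1.08 ± 0.16 (limma adjusted p = 0.0678), Klf4 by -1.15 ± 0.20 (0.1) and Slc11a1 by -2.56 ± 0.28 (0.0568). Zscan4c differed by 0.56 ± 0.22 (0.429). The Ino80e arrays lay between the Ino80c and NT arrays or near NT for several of these genes. Klf4 had 4.55 and 4.53 in Ino80c cells, against 5.64 and 5.73 in Ino80e cells. Nanog had 2.05 and 2.24 in Ino80c cells, against 2.79 and 2.99 in Ino80e cells, and the Ino80 and Ino80b arrays ran from 1.71 to 2.08. Esrrb had 3.30 and 3.76 in Ino80c cells, against 4.45 and 4.71 in Ino80e cells, a difference of -1.05 ± 0.28 that was not called (limma adjusted p = 0.222). For Nanog, Klf4 and Esrrb no Ino80c array reached the Ino80e arrays of the same slide. With 2 arrays a group such separation was also seen in other lists. The arrays lay apart and lower for 20 of 39 pluripotency, 46 of 81 ribosomal protein and 33 of 66 respiratory chain genes. They lay apart and higher for 4, 0 and 0. The share over all genes was not taken for this comparison, so these counts are a description and no result about the lists. Without Ino80c replicate 2, or either Ino80e array, no gene passed, with 1623, 1874 and 1231 at an unadjusted p under 0.05. The number was 1 without either Ino80b array and 2 without Ino80c replicate 1. It was 17 without either NT array.

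Against the mean of the 3 other knockdowns, 12 genes (0.0581%) were called, 11 higher (0.0532%) and 1 lower (0.00484%) in Ino80c cells. The lower gene was Ino80c itself. Rhox5 had 3.95 and 3.67 in Ino80c cells, against means of 0.70 (Ino80), 3.11 (Ino80b) and 2.79 (Ino80e), a difference of 1.61 ± 0.17. Fbp1, the gluconeogenic fructose bisphosphatase, had -0.55 and -0.62 in Ino80c cells, against -3.57 (Ino80), -1.46 (Ino80b) and -2.29 (Ino80e), a difference of 1.85 ± 0.19. Its muscle form Fbp2 was higher by 1.33, and Piwil4, a germline Argonaute protein, by 1.51. Ccm2l, Igdcc4 and Defa22 were higher by 1.41, 1.03 and 1.67. For Rhox5, Fbp1, Fbp2, Piwil4, Ccm2l and Defa22 the Ino80 group had the lowest mean of the 5 groups, and that group enters the mean they were set against. Against NT, Fbp1 differed by 1.85, Rhox5 by 0.95 and Piwil4 by 0.87 and were called, while Fbp2 (0.33, limma adjusted p = 0.226), Defa22 (0.35, 0.308) and Ccm2l (0.54, 0.0795) were not. Igdcc4 was 1.22 above NT (limma adjusted p = 0.0173), with its lowest mean in Ino80e cells. The number of calls fell to 0 without Ino80c replicate 2 (1373 at an unadjusted p under 0.05), 2 without Ino80c replicate 1 and 6 without Ino80 replicate 2. It was 2 and 3 without the Ino80b arrays and 4 without either Ino80e array.

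Ino80c knockdown differed from Ino80 knockdown in 218 genes (1.06%), 190 higher (0.92%) and 28 lower (0.136%), across slides 3 and 2. The difference lay in endoderm genes among others: 6 of 30 list members were higher and none lower, 20% against 0.92% of all genes called higher. Gata6, a factor of primitive endoderm, had -1.03 and -0.65 in Ino80c cells, against -3.54 and -3.16 in Ino80 cells (2.52 ± 0.19, limma adjusted p = 0.00512). Further Gata6 probes gave 1.43 and 0.16. The NT arrays were at -0.15 and -0.31. Cubn, an endocytic receptor of visceral endoderm, had -0.06 and -0.07 in Ino80c cells, against -3.15 and -2.79 in Ino80 cells. Dkk1, a Wnt inhibitor, had -2.40 and -2.45 in Ino80c cells, against -5.21 and -5.15 in Ino80 cells, and its further probe gave a difference of 1.52. Rhox5 was 3.11 ± 0.20 higher, Fbp1 2.98 ± 0.23 and Piwil4 2.56 ± 0.19. Tfcp2l1 was 1.10 ± 0.16 higher in Ino80c cells than in Ino80 cells, and the NT arrays were at 0.67 and 0.94. Bmp4, Klf4 and Slc11a1, set against Ino80e cells above, differed between Ino80c and Ino80 cells by 0.28, 0.07 and 0.31. Their low levels were thus not particular to the Ino80c knockdown. Slc39a8 (-1.30 at a further probe), Stmn4, Lrp8, Dennd1c, Hdac7 and Krt8 were lower by 1.10 to 1.74. The authors' deposited table gave 277 higher and 574 lower, a share of 32.5% higher against 87.2% as given, and the replicate block gave 726 genes. Without Ino80c replicate 1 or 2 the counts were 4 and 0, without Ino80 replicate 1 or 2 they were 107 and 27, and without an Ino80b or Ino80e array 84 and 85.

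**Figure D5:**
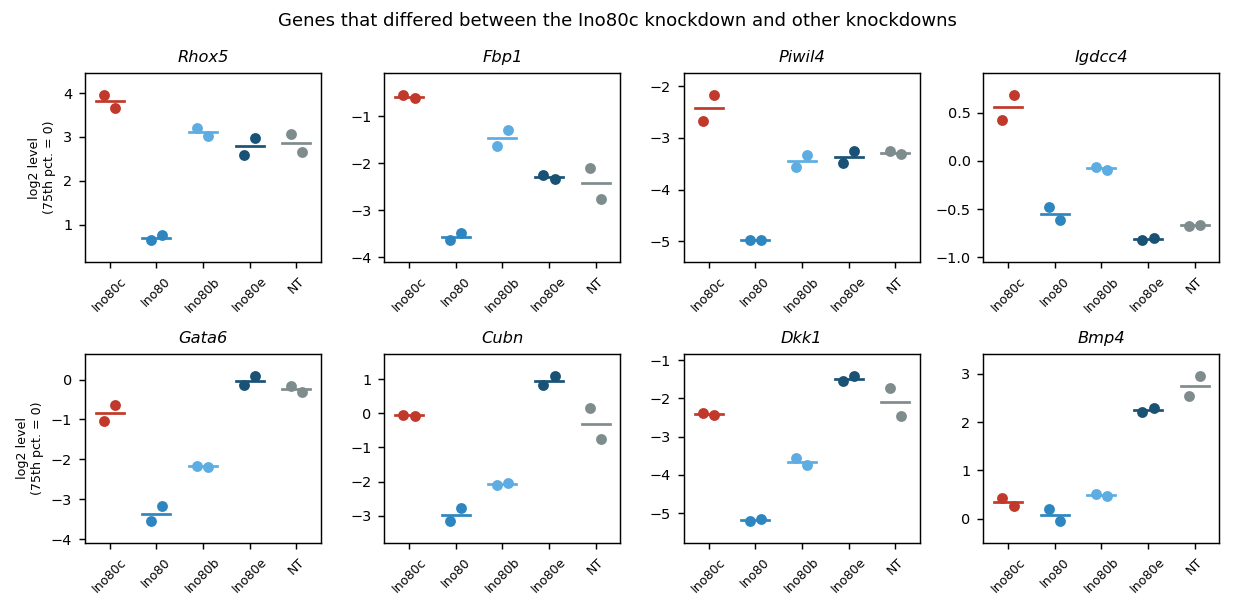
Log2 levels of 8 genes (y axis) by siRNA (x axis), with points for arrays and bars for group means. Rhox5, Fbp1, Piwil4 and Igdcc4 lie highest in Ino80c cells, and Gata6, Cubn and Dkk1 lie lowest in Ino80 cells. The means of Bmp4 in Ino80c and Ino80 cells differ by 0.28.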

How the data were processed

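Agilent arrays of 10 samples were used. Feature Extraction 9.5.3.1 read the scans, per the file headers. Each deposited scanner file gives a processed intensity per spot, background-subtracted and not scaled between arrays. The authors' deposited log2 table equals each array's log2 mean signal plus a constant of unstated origin. The dye is labelled Cy5 but the green channel was read.

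Control and outlier-flagged spots were left out, spots of a probe averaged, and the array's 75th percentile subtracted on the log2 scale. A probe was kept where some group had it well above background on each of its arrays, and the brightest represented its gene. Symbols came from RefSeq GRCm38.p6 for 22951 probes. limma 3.58.1 (R 4.3.3, R package data.table, version 1.17.8) fitted all 10 arrays by group, with 5 residual degrees of freedom. P-values are two-sided and Benjamini-Hochberg adjusted over 20663 genes. For a probe not well above background in a group, "at least" sets the brighter mean against the lowest well-measured signal of the dimmer arrays.

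Named genes were the 4 targets, the 12 largest called rises and falls with a symbol, no overlap and signal well above background on all 4 arrays, the 5 largest bounds each way, up to 6 called members per list, and 8 each way in the other comparisons. A few genes that this rule takes are not reported here. Members and lists were chosen with earlier results of these data known. The number of arrays limits precision. The fit was tested on simulated data.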

Additional observations from a re-analysis of the deposited data

How the results depend on the processing

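Counts for Ino80c against NT, against Ino80e, against the other knockdowns and against Ino80 (in that order) were as follows. Normexp background correction gave 4231, 161, 88 and 780, and for the authors' deposited table the counts were 2220, 167, 62 and 851. Median centring gave 531, 15, 6 and 101. Quantile normalization gave 26 for Ino80e, with 986, 16 and 288 for the others. No filter on dim probes gave 146, 1, 4 and 86, and requiring all 10 arrays above background gave 2272, 78, 44 and 352. A trended, robust prior gave 2583, 129, 67 and 461, and array weights 129, 245 and 94, with 203 for Ino80. With only the arrays compared, none passed in the 3 pairwise comparisons (4706, 2714 and 2338 at an unadjusted p under 0.05), and the Ino80c RNA value of -2.338 was not called (limma adjusted p = 0.146). Leaving out 1 array leaves a group with a lone array, assumed to vary like the others, and gave 0 to 3201, 0 to 17, 0 to 9 and 0 to 188 genes, and Ino80c RNA between -2.492 and -2.183. Of 106 named genes called against NT, 73 to 104 were still called under other scalings, and 6 or fewer without NT replicate 2 or an Ino80c array. None of the 106 turned sign except Dhrs9, at -0.3085 without the filter on dim probes, where another probe represents it. The replicate block gave 3739, 302, 38 and 726. The labels do not say that a number marks a shared culture or day. Deviations of same-numbered arrays correlated at 0.02 between Ino80c and NT, 0.14 between Ino80c and Ino80e and 0.004 to 0.32 over all pairs of groups, with 8 of 10 pairs over 0.1, so the pairing was not settled and the counts depend on it.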
